A study of Mus musculus with 16 samples.

Results

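The 29 genes described here are markers of muscle-resident cells that are neither myogenic nor myeloid, read in RNA of sorted muscle stem cells (MuSCs) as a measure of how pure the sort was. They were chosen by symbol from a written marker list, and all 29 were found among the 24411 genes of the count table. The list holds 10 markers of fibroadipogenic cells, 10 of endothelial cells, 6 of mural cells and 3 of Schwann cells.

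Skeletal muscle holds many cell types beside its fibers and MuSCs. Fibroadipogenic progenitors are the interstitial mesenchymal cells that lay down matrix and can become adipocytes or fibroblasts. Endothelial cells line the vessels, mural cells (pericytes and smooth muscle cells) wrap them, and Schwann cells ensheathe the nerves. After injury, fibroadipogenic progenitors expand and signal to MuSCs, while immune cells clear the debris. A sort for MuSCs removes these cells through surface antigens, so their transcripts in sorted MuSCs are read as carry-over, or as transcripts that MuSCs themselves make.

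The study asked what loss of TRF2, a protein of the telomere-protecting shelterin complex encoded by Terf2, does to MuSCs. RNA of MuSCs was sequenced in 4 groups of 4 libraries each, which the labels call biological replicates: control and TRF2 MuSC-cKO mice, each uninjured or 3 days after 10 µl of notexin, a snake toxin that destroys myofibers, was injected into the tibialis anterior muscle (3 DPI). The TRF2 MuSC-cKO mice carried a floxed TRF2 allele and the tamoxifen-inducible Pax7-driven Cre, so that deletion was limited to Pax7-expressing cells that recombined. The labels name the controls Wildtype, and whether they carried Cre or received tamoxifen is not given in the sources used here. All mice were on a C57BL/6 background, the first tamoxifen dose was given to mice aged 8 to 10 weeks, and sex and pooling of animals are not given per library. In the sort, cells positive for CD45, CD31, CD11b or Sca1 were removed, and cells positive for α7-integrin and for VCAM or CD34 were kept.

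Library totals ran from 620506 to 1351130 estimated counts, so that low markers rest on few reads: Pi16 was counted 7 to 12 times in each uninjured control library. CPM below are counts scaled to library size by edgeR's TMM method. Replicates within a group differed by more than sampling noise in each of the 24 pairs. Terf2 was at 66.3 to 94.5 CPM in the control and 27.2 to 58.7 CPM in the TRF2 MuSC-cKO libraries of uninjured muscle, without overlap. At 3 DPI it was at 35.5 to 48.6 CPM in the control libraries and at 21.9 to 89.7 CPM in those labelled TRF2 MuSC-cKO, so Terf2 does not separate these labels. The summed level of 13 MuSC markers did separate them, at 1346 to 1576 TPM in control libraries and 703 to 859 TPM in those labelled TRF2 MuSC-cKO. None of the 13 was called there, and the list was chosen with earlier results of these data known. The sum is therefore no test of the genotype labels. Genotype at 3 DPI is given by label. Replicate 3 of the libraries labelled TRF2 MuSC-cKO at 3 DPI stood apart, with 15387 genes counted against at least 19996 in each of the other 15 libraries. The label codes of the libraries do not cross the genotypes in uninjured muscle, so code and genotype cannot be told apart there. Within each genotype the codes were only partly shared between uninjured and injured libraries, and the injury comparisons held no term for them.

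Of the 6 markers that passed the test between genotypes in uninjured MuSCs, 3 (Dpt, Rgs5 and Cspg4) have a single start in the RefSeq promoter table of GRCm38.p6, and their upstream sequence is shown because they were called and have such an entry. The calls of Rgs5 and Cspg4 were less firm than that of Dpt. Each runs 5′ to 3′ on the plus strand and stops before the annotated gene start. Capitals mark the E-box core CAGCTG, the form of E-box that myogenic factors such as MyoD favor, and the telomere repeat unit TTAGGG, which TRF2 binds, read on either strand (CCCTAA on the other).
Dpt, chr1:164796413-164796643: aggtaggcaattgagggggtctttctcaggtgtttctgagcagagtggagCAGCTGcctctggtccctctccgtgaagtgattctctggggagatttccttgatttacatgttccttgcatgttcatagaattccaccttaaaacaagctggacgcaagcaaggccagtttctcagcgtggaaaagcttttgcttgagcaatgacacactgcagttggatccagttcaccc
Rgs5, chr1:169655251-169655500: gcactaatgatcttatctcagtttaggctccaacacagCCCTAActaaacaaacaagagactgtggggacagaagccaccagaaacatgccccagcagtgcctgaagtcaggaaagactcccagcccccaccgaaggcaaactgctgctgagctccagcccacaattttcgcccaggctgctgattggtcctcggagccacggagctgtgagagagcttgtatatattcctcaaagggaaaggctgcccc
Cspg4, chr9:56864854-56865032: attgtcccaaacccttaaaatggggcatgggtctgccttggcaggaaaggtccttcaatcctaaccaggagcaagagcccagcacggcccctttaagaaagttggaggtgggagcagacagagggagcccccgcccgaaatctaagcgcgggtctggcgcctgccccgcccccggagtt
The Dpt stretch held 1 CAGCTG, at -200 to -195 from the RefSeq start. The Rgs5 stretch held 1 TTAGGG on the minus strand, at -212 to -207, and the Cspg4 stretch held neither. Of the 16 members in the promoter table, 4 held CAGCTG and 2 held TTAGGG in their 250 bases upstream, where 4271 and 3061 of all 32851 promoters of that length in the table did (9.32% for the latter). A match describes these letters only.

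The 29 markers together made up 0.250% to 0.277% of transcripts (as TPM, a scale per transcript length) in control and 0.210% to 0.280% in TRF2 MuSC-cKO libraries of uninjured muscle, 0.1904% to 0.215% in control libraries at 3 DPI and 0.206% to 0.219% in those labelled TRF2 MuSC-cKO. Almost all were counted everywhere. A count of 0 was found for Mfap5 in control uninjured replicate 2, and for Mfap5 and Esam in replicate 3 of the libraries labelled TRF2 MuSC-cKO at 3 DPI. In these libraries 3 counts correspond to 2.701 and 3.72 CPM. That number was taken as an approximate upper limit for a count of 0 from counting error alone, and replicates differed by more than that error. Olfactory receptor genes, used mainly in the nose although some have a role in muscle cells, give a low level to set the markers against and no threshold of expression: the 95th percentile of the 1107 in the table lay at 12.6 and 22.1 TPM in the uninjured control and TRF2 MuSC-cKO groups and at 14.9 and 30.6 TPM in the same groups at 3 DPI. At or below that level lay the mean TPM of Pdgfra, Lum, Pi16 and Emcn in uninjured control MuSCs, of Lum, Kdr and S100b in uninjured TRF2 MuSC-cKO MuSCs, of none at 3 DPI in control MuSCs, and of Lum, Kdr, Emcn, Cldn5 and Abcc9 at 3 DPI in libraries labelled TRF2 MuSC-cKO.

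**Figure D1:**
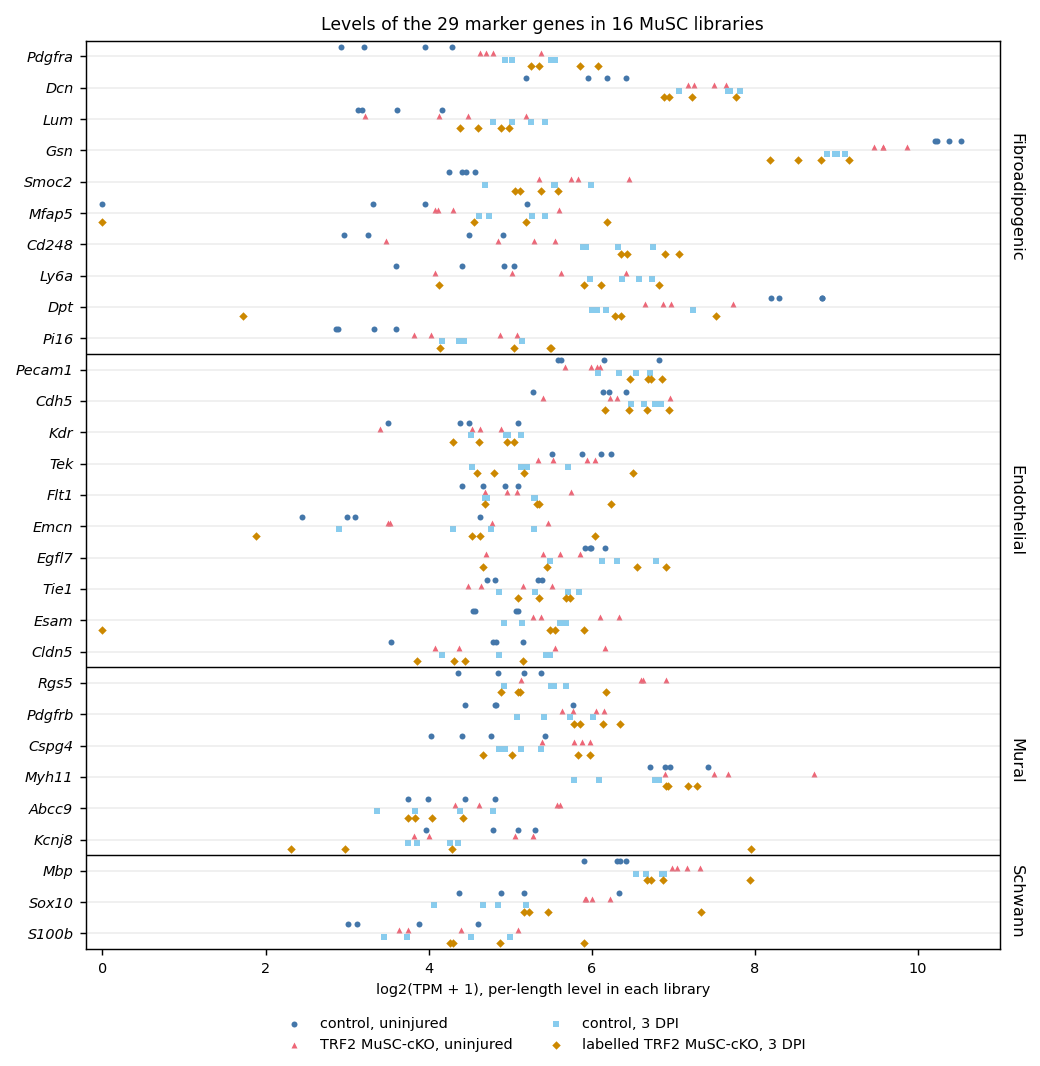
Level of each of the 29 markers, as log2(TPM + 1), in each of the 16 libraries, with 1 point per library and colors and shapes for the 4 groups. Gsn lies above every other marker in all 16 libraries, most markers lie between 3 and 7 on this scale, and the points at 0 are Mfap5 (2 libraries) and Esam (1 library).

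Fibroadipogenic markers were led by Gsn, the actin-severing protein gelsolin, which many cell types make. Its mean was 1297 TPM in uninjured control MuSCs, above that of 99.7% of the 24411 genes, and it held 70.4% of the summed level of the 10 fibroadipogenic markers there. Dpt, the matrix protein dermatopontin, followed with 377 TPM and 20.4% of the sum. Dcn, the small collagen-binding proteoglycan decorin, had 63.3 TPM, and the remaining 7 had between 8.23 TPM (Pi16) and 23.1 TPM (Ly6a). The low members in that group were Pdgfra (12.0 TPM), the receptor that defines fibroadipogenic progenitors, the proteoglycan lumican Lum (10.98 TPM), the matrix-binding Smoc2 (20.5 TPM), the microfibril protein Mfap5 (14.8 TPM) and the stromal surface glycoprotein Cd248, or endosialin (16.5 TPM). Pi16 marks a perivascular, stem-like fibroblast, and Ly6a encodes the Sca1 antigen that the sort removes.

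Endothelial markers had means of 10.7 to 69.5 TPM in uninjured control MuSCs. Pecam1, which encodes the CD31 antigen of the sort, was the first at 69.5 TPM, followed closely by the junctional cadherin Cdh5 (66.3 TPM), the secreted Egfl7 (63.7 TPM) and the angiopoietin receptor Tek (61.3 TPM), and the ranges of these 4 over libraries overlapped. The orphan receptor Tie1 (33.3 TPM), the adhesion protein Esam (27.7 TPM), the VEGF receptors Flt1 (26.9 TPM) and Kdr (21.2 TPM), the tight-junction claudin Cldn5 (24.8 TPM) and the sialomucin Emcn (10.7 TPM) were lower. No single gene carried this group: its largest share, that of Pecam1, was 17.1%.

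Mural markers were led by Myh11, the myosin heavy chain of smooth muscle, with 129 TPM and 48.7% of the sum in uninjured control MuSCs. Pdgfrb, the receptor through which vessels recruit pericytes, had 32.2 TPM, Rgs5, a regulator of G-protein signaling used as a pericyte marker, 30.7 TPM, and Cspg4, the NG2 proteoglycan, 25.95 TPM. The subunits of the pericyte potassium channel Kcnj8 and Abcc9 had 28.3 and 18.8 TPM. The Schwann markers were Mbp, a myelin protein (75.6 TPM), Sox10, the transcription factor of the neural crest glia (40.7 TPM), and the calcium-binding S100b (12.95 TPM). Mbp transcripts are also made from the same locus outside the nervous system, and the table does not separate them.

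**Figure D2:**
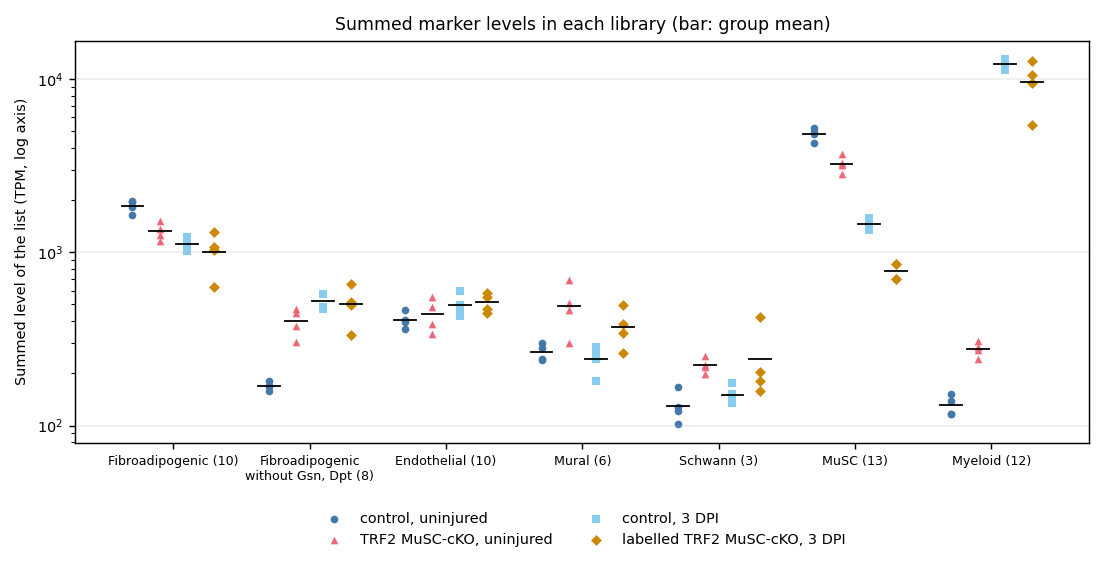
Summed level of each marker list in each library (TPM, logarithmic axis), with the number of genes per list in brackets and a bar at the mean of the 4 libraries of a group. The fibroadipogenic sum falls from control to TRF2 MuSC-cKO in uninjured MuSCs. Without Gsn and Dpt, both called lower and left out after their values were seen, the same sum goes from 158 to 181 TPM to 302 to 473 TPM.

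In uninjured MuSCs the marker groups did not move as one between genotypes. Dcn and Smoc2 were higher in TRF2 MuSC-cKO than in control MuSCs and Gsn and Dpt were lower, so that fibroadipogenic markers changed in opposite directions. Of the mural markers, Rgs5 and Cspg4 were higher, and no endothelial or Schwann marker was called. To be called, a gene needed a Benjamini-Hochberg adjusted p below 0.02 and more than a 1.5-fold change in edgeR's quasi-likelihood test over all genes that passed a filter on low counts. Of the 29 markers, 24 passed the filter, all except Mfap5, Ly6a, Pi16, Emcn and S100b, and 4 of the 24 (16.7%) were called higher and 2 (8.33%) lower, where 0.584% of the 14048 genes tested were called higher and 2.63% lower (3.22% in either direction). The median log2 fold change was 0.56 over the 24 markers and 0.06 over all genes tested. Because these are bulk samples, more cells of a type and more RNA per cell cannot be told apart.

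Dcn (chromosome 10, 97479609 to 97518143, plus strand) was at 70.6, 46.8, 26.7 and 62.4 CPM in the 4 control libraries and at 119.5, 100.8, 117.4 and 98.1 CPM in the 4 TRF2 MuSC-cKO libraries. Every TRF2 MuSC-cKO value lay above every control value, and the log2 fold change was 1.20 (SE 0.25, adjusted p = 0.00188). Smoc2 (chromosome 17, 14279506 to 14404790, plus strand) was at 26.8, 27.9, 23.3 and 24.4 CPM in control and at 48.5, 41.6, 55.8 and 89.9 CPM in TRF2 MuSC-cKO libraries. The control libraries were tightly spaced, the groups did not overlap, and the log2 fold change was 1.31 (SE 0.32, adjusted p = 0.0076). Pdgfra, measured at 19.7, 42.3, 50.0 and 26.3 CPM in control and 87.6, 58.2, 58.7 and 65.4 CPM in TRF2 MuSC-cKO libraries, did not overlap either and missed the threshold (log2 fold change 1.09, SE 0.31, adjusted p = 0.0248).

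Gsn (chromosome 2, 35256380 to 35307892, plus strand) was at 1589, 1393, 1262 and 1883 CPM in control and at 653, 742, 658 and 909.8 CPM in TRF2 MuSC-cKO libraries. The highest TRF2 MuSC-cKO library lay well below the lowest control library, and the log2 fold change was -0.92 (SE 0.19, adjusted p = 0.00154). Dpt (chromosome 1, 164796644 to 164824266, plus strand), whose upstream sequence is printed above with the E-box core, was at 323, 314, 188 and 239 CPM in control and at 65.1, 58.2, 65.8 and 124 CPM in TRF2 MuSC-cKO libraries. This was the largest change among the 24 markers tested, with a log2 fold change of -1.65 (SE 0.23, adjusted p = 4.82e-06) and no overlap. The other 5 fibroadipogenic markers overlapped between genotypes. Mean levels in control and TRF2 MuSC-cKO MuSCs were 10.1 and 14.6 CPM for Lum, 18.9 and 26.9 CPM for Cd248, 8.64 and 11.9 CPM for Mfap5, 9.21 and 14.4 CPM for Ly6a and 8.01 and 17.7 CPM for Pi16.

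**Figure D3:**
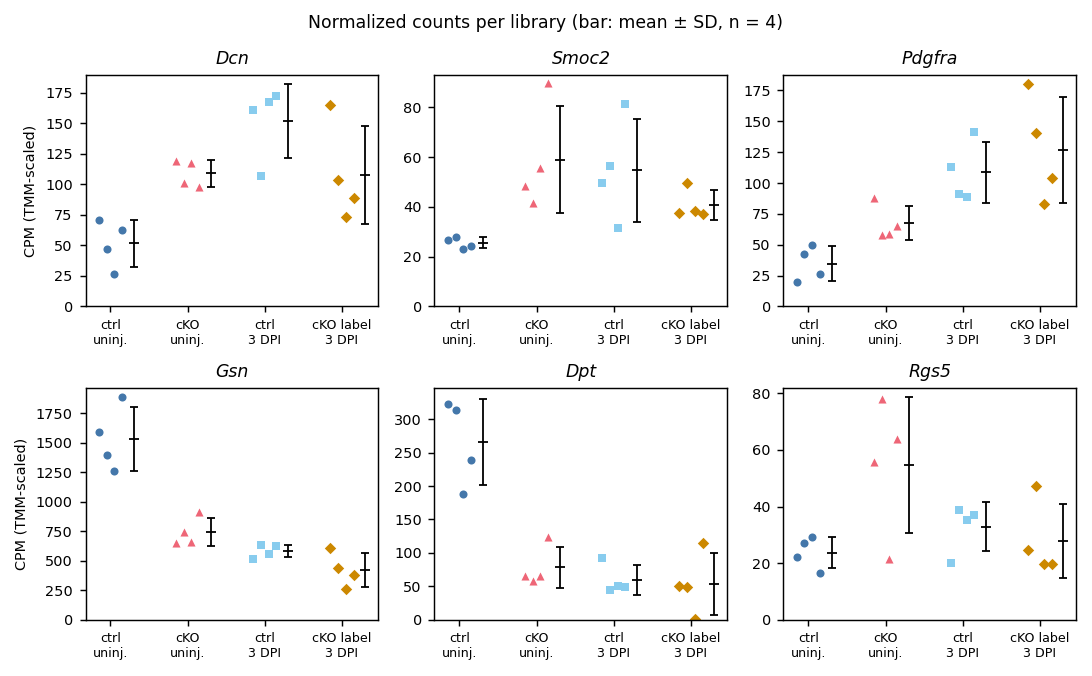
CPM of 6 markers in each library of the 4 groups, with the mean ± SD of the 4 libraries beside the points. Dcn, Smoc2 and Pdgfra lie higher and Gsn and Dpt lower in TRF2 MuSC-cKO than in control libraries of uninjured muscle without overlap, whereas Rgs5 overlaps through 1 TRF2 MuSC-cKO library at 21.5 CPM.

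The mural markers Rgs5 (chromosome 1, 169655501 to 169695813, plus strand) and Cspg4 (chromosome 9, 56865033 to 56899870, plus strand) were called although their groups overlapped. Rgs5 was at 22.3, 27.0, 29.1 and 16.6 CPM in control and at 55.6, 77.9, 21.5 and 64.0 CPM in TRF2 MuSC-cKO libraries, where replicate 3 lay among the controls (log2 fold change 1.33, SE 0.35, adjusted p = 0.0144). Cspg4 was at 96.5, 72.9, 139.5 and 60.4 CPM in control and at 153.9, 187.0, 118.8 and 163.4 CPM in TRF2 MuSC-cKO libraries, where control replicate 3 exceeded the lowest TRF2 MuSC-cKO library (log2 fold change 0.88, SE 0.23, adjusted p = 0.0172). Pdgfrb had a log2 fold change of 0.70 (SE 0.25, adjusted p = 0.0869) and Abcc9 of 0.67 (SE 0.28, adjusted p = 0.16), neither of them called. Myh11 averaged 387 ± 99.2 CPM in control and 554 ± 340 CPM in TRF2 MuSC-cKO MuSCs (SD, n = 4), with TRF2 MuSC-cKO replicate 2 at 1045 CPM. Kcnj8, the partner of Abcc9 in the channel, averaged 27.1 CPM in control and 18.8 CPM in TRF2 MuSC-cKO MuSCs.

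The endothelial markers did not share a direction. Of the 9 tested, 4 had a log2 fold change above 0 and 5 below, with a median of -0.19, and none was called. Egfl7 was at 35.7, 36.0, 37.2 and 40.0 CPM in control and at 10.7, 19.7, 22.9 and 27.2 CPM in TRF2 MuSC-cKO libraries, without overlap (log2 fold change -0.77, SE 0.37, adjusted p = 0.24). It shares 7.37% of its exonic bases with a same-strand gene, Gm20532, so its reads could have been split. Esam had a log2 fold change of 0.82 (SE 0.37, adjusted p = 0.203). Pecam1, the CD31 gene, was at 72.4, 92.7, 60.5 and 177.4 CPM in control and at 54.4, 81.0, 77.3 and 74.9 CPM in TRF2 MuSC-cKO libraries, which overlapped (log2 fold change -0.36, SE 0.26, adjusted p = 0.474), and its log2 fold change was 0.013 without control replicate 4. Mean levels in control and TRF2 MuSC-cKO MuSCs were 119 and 113 CPM for Cdh5, 51.5 and 41.1 CPM for Kdr, 129 and 87.2 CPM for Tek, 76.4 and 79.4 CPM for Flt1, 58.2 and 43.5 CPM for Tie1, 15.1 and 18.9 CPM for Cldn5 and 6.17 and 11.2 CPM for Emcn.

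Among the Schwann markers, Mbp was at 95.6, 88.2, 75.6 and 79.0 CPM in control and at 99.4, 146.5, 120.2 and 121.2 CPM in TRF2 MuSC-cKO libraries. The groups did not overlap, but the difference was not called (log2 fold change 0.65, SE 0.22, adjusted p = 0.0737). Sox10 averaged 47.4 ± 27.5 CPM in control and 61.1 ± 3.50 CPM in TRF2 MuSC-cKO MuSCs (SD, n = 4), and S100b 9.44 and 11.1 CPM. Of the 29 markers, Dcn, Smoc2, Pdgfra and Mbp lay higher and Gsn, Dpt and Egfl7 lower in TRF2 MuSC-cKO libraries without overlap, which holds for 3.43% (higher) and 9.18% (lower) of all genes tested, 12.6% together, and 12 of the 24 tested (50.0%) had an unadjusted p under 0.05 against 19.5% of all genes.

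The calls were not equally firm. Dcn, Gsn and Dpt remained called when any 1 of the 8 libraries was left out. Smoc2 lost its call without control replicate 1, 2 or 4 or TRF2 MuSC-cKO replicate 3 or 4 (adjusted p of 0.0216 to 0.0865), and Rgs5 and Cspg4 lost theirs without replicate 1, 2 or 4 of either genotype (0.0392 to 0.0944 and 0.0441 to 0.144). Other tools ended these 2 calls too. Rgs5 missed the threshold in limma's robust fit (adjusted p = 0.023) and limma-voom (0.0242), and Cspg4 in DESeq2 (0.0246), limma's robust fit (0.0254) and edgeR without a filter (0.0205). Pdgfra, which missed the threshold, was called with library size alone (0.0115), with at least 10 counts in every library (0.00711), by limma-voom (0.0109) and without control replicate 3 (0.00897), Pdgfrb without control replicate 3 (0.00985) and Mbp with library size alone (0.0139). None of the 6 was called when all 16 libraries entered 1 fit (adjusted p from 0.0208 for Gsn to 0.334 for Cspg4) or in the table that the authors rescaled by abundance (0.0344 for Dpt to 0.239 for Cspg4), where 82 and 17 genes were called in all, and all 6 kept their sign in both.

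Other measures moved with the same groups. The summed level of 13 MuSC markers was 4283 to 5194 TPM in control and 2830 to 3670 TPM in TRF2 MuSC-cKO libraries, with 9 of the 13 (69.2%) called lower against 2.63% of all genes, among them Calcr (log2 fold change -1.32), Cd34 (-1.28), Itga7 (-1.21) and Myod1 (-1.14). The sums of 12 myeloid markers (116 to 152 and 241 to 308 TPM), of 6 tenocyte markers (119 to 221 and 232 to 316 TPM) and of the 1107 olfactory receptor genes (4554 to 9147 and 9353 to 12305 TPM) lay higher in TRF2 MuSC-cKO libraries without overlap on the TPM scale. On the CPM scale the tenocyte (155 to 277 and 235 to 271 CPM) and olfactory receptor sums (1967 to 3567 and 3276 to 4029 CPM) overlapped, whereas the myeloid sums (105 to 133 and 147 to 222 CPM) did not. Those of 6 adipocyte markers (59.1 to 94.5 and 81.1 to 191 TPM), 6 lymphocyte markers (42.6 to 76.5 and 73.4 to 114 TPM) and 10 myofiber markers (187 to 254 and 238 to 306 TPM) overlapped, and none of the genes of these 5 cell type lists that passed the filter was called (8 of 12 myeloid, 5 of 10 myofiber, 3 of 6 tenocyte, 1 of 6 adipocyte and 1 of 6 lymphocyte genes passed). The per-length scale itself was shifted, with a median log2 ratio of 0.39 over the 22578 genes at or above a mean of 1 TPM. The part of these differences in the marker changes was not tested.

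On that scale the fibroadipogenic sum was 1638 to 1971 TPM in control and 1164 to 1523 TPM in TRF2 MuSC-cKO libraries (log2 ratio of means -0.47), and without Gsn and Dpt, left out after their values were seen, it was 1.24. The endothelial sum overlapped (360 to 462 and 337 to 554 TPM). The mural sum was 239 to 301 and 298 to 691 TPM, overlapping through a single TRF2 MuSC-cKO library. The Schwann sum was 101 to 167 and 198 to 252 TPM, without overlap. The log2 ratios of the last 3 were 0.12, 0.89 and 0.79, all of these ratios to be read against the shift of 0.39 over all genes. The sums of longer lists did not show the mural and Schwann differences at this size. The sum of 12 further mural genes was 1171 to 1494 TPM in control and 1092 to 1429 TPM in TRF2 MuSC-cKO libraries (means 1322 and 1290 TPM, and 2747 and 2120 CPM). That of 12 further Schwann genes was 531 to 654 and 662 to 1035 TPM (means 617 and 811 TPM), without overlap. It overlapped on the CPM scale (666 to 712 and 617 to 834 CPM). Abundant genes weigh most in such sums, among them Notch3 (means 483 and 436 TPM). By gene, 8 of 11 further Schwann genes tested had a log2 fold change above 0 and 3 below (median 0.49). Of 9 further mural genes tested, 5 lay above 0 and 4 below (median 0.11). An unadjusted p under 0.05, in either direction, was found for 45.5% of these Schwann and 55.6% of these mural genes, against 19.5% of all genes. The further endothelial genes leaned higher, unlike the 9 endothelial markers tested. Of 16 tested, 12 lay above 0 and 4 below (median 0.39, against 0.06 over all genes). Of these 16, 25% had an unadjusted p under 0.05. The ratios of 0.89 and 0.79 were measured for the 6 mural and 3 Schwann markers. The sum of 16 further fibroadipogenic genes was 2648 to 3629 TPM in control and 1598 to 2657 TPM in TRF2 MuSC-cKO libraries, which overlapped. On the CPM scale it was 5886 to 9420 and 2543 to 4370 CPM, without overlap. Col3a1 weighed most in it (means 2109 and 558 TPM). By gene, 10 of 14 tested lay above 0 and 4 below (median 0.47).

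**Figure D4:**
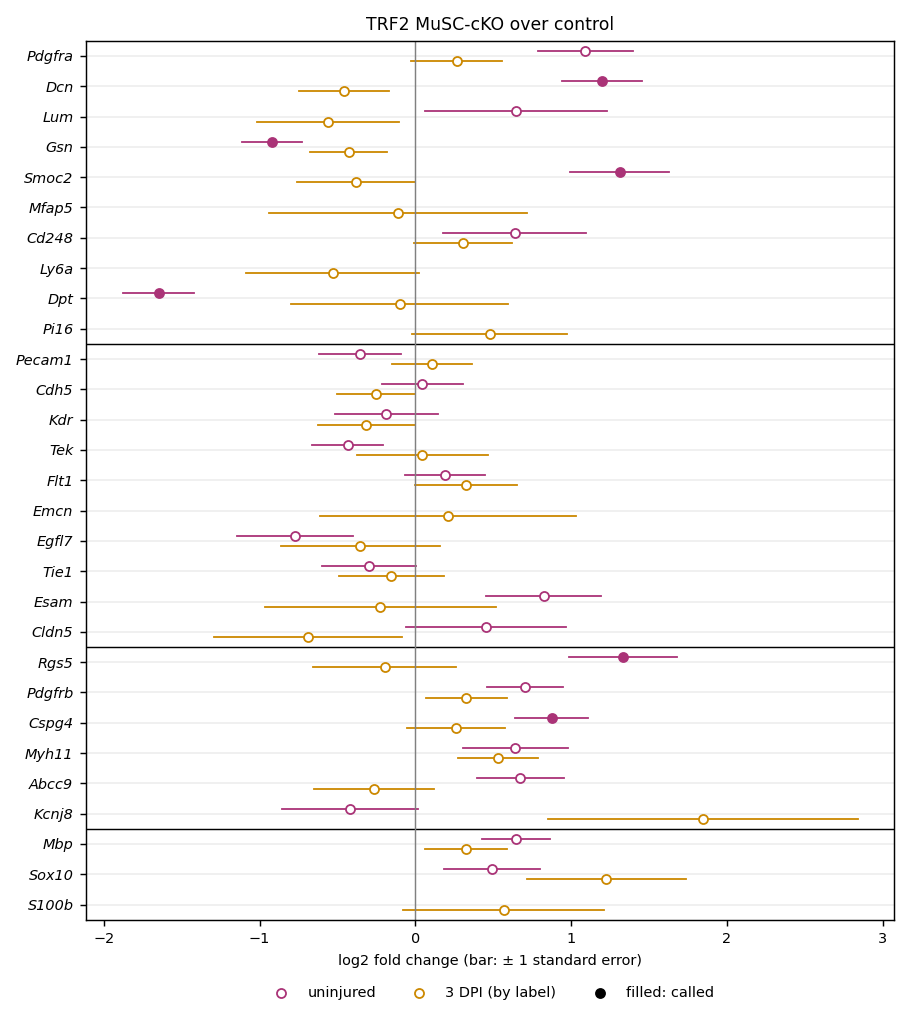
Log2 fold change of TRF2 MuSC-cKO over control for each marker tested, in uninjured MuSCs and at 3 DPI by label, with bars of ± 1 standard error and filled points for called genes. Filled points are Dcn, Smoc2, Rgs5 and Cspg4 on the right and Gsn and Dpt on the left, all in uninjured MuSCs.

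At 3 DPI no marker was called between libraries labelled TRF2 MuSC-cKO and control libraries. All 29 passed the filter, 14 had a log2 fold change above 0 and 15 below, and the median was -0.10 against 0.00 over all genes tested. Of all 14559 genes tested, edgeR called 0%, 9.36% had an unadjusted p under 0.05, and 7.84% did not overlap (2.97% higher and 4.87% lower), while 1 of the 29 markers (3.45%) had an unadjusted p under 0.05 and none of the 29 was without overlap. DESeq2 called 6 genes and limma's robust fit 1 gene in all, none of them a marker. When replicate 3 of the libraries labelled TRF2 MuSC-cKO was left out, 16 genes were called, again no marker.

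The marker with an unadjusted p under 0.05 was Sox10, at 37.1, 18.5, 33.4 and 30.4 CPM in control libraries and at 38.6, 36.9, 146.3 and 45.4 CPM in those labelled TRF2 MuSC-cKO (log2 fold change 1.23, SE 0.51, adjusted p = 0.514). Its high value lay in replicate 3, the library that stood apart, and without that library the log2 fold change of Sox10 was 0.46 (SE 0.37, adjusted p = 0.647). Of the antigen genes of the sort, the markers Ly6a and Pecam1 overlapped, whereas Itga7 (α7-integrin, 174.5 to 269 and 40.9 to 96.9 CPM) and Ptprc (CD45, 186 to 285 and 100.3 to 163.6 CPM) were lower in libraries labelled TRF2 MuSC-cKO without overlap and were not called. Itgam (CD11b, 334 to 457 and 212 to 426 CPM), Vcam1 (77.2 to 147 and 34.9 to 81.8 CPM) and Cd34 (75.7 to 115 and 32.2 to 101 CPM) overlapped. Ly6a was at 37.1, 24.3, 39.3 and 34.6 CPM in control libraries and at 42.1, 23.1, 4.96 and 21.0 CPM in those labelled TRF2 MuSC-cKO (log2 fold change -0.53, SE 0.55, adjusted p = 0.78), and Pecam1 was at 78.8, 114.8, 155.4 and 139.9 CPM and at 120.3, 128.0, 127.7 and 134.0 CPM (log2 fold change 0.11, SE 0.25, adjusted p = 0.916). Ly6a belongs to a family of similar genes whose reads the counting could have split.

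For each of the remaining markers, the control libraries overlapped with those labelled TRF2 MuSC-cKO. Of the genes called in uninjured MuSCs, Dcn averaged 152 ± 30.4 and 108 ± 40.1 CPM, Smoc2 54.7 ± 20.7 and 40.7 ± 5.97 CPM, Gsn 582 ± 54.5 and 421 ± 143 CPM and Dpt 59.0 ± 22.6 and 53.5 ± 46.4 CPM (SD, n = 4). Rgs5 averaged 32.9 ± 8.64 and 27.9 ± 13.1 CPM and Cspg4 116 ± 10.4 and 135 ± 58.9 CPM (SD, n = 4). Pdgfra averaged 109 and 127 CPM, Lum 30.4 and 19.97 CPM, Mfap5 19.2 and 17.5 CPM, Cd248 84.3 and 101.5 CPM and Pi16 21.7 and 29.2 CPM. Endothelial means lay between 11.48 CPM (Cldn5, labelled TRF2 MuSC-cKO) and 178 CPM (Cdh5, control). Among the mural and Schwann markers, Kcnj8 was at 10.8, 18.5, 17.7 and 12.3 CPM in control libraries and at 3.51, 14.99, 179.8 and 5.82 CPM in those labelled TRF2 MuSC-cKO, the high value again in replicate 3 and the other 3 libraries no higher than the control range, while S100b averaged 13.3 and 19.3 CPM.

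The marker sums overlapped for the fibroadipogenic list (1023 to 1231 and 627 to 1301 TPM), the endothelial list (430.2 to 599 and 447 to 579.9 TPM), the mural list (182 to 283 and 261 to 493 TPM) and the Schwann list (135 to 176 and 158 to 424 TPM). The MuSC sums given above did not overlap. All 13 MuSC markers had a log2 fold change below 0 (median -0.76), 6 of them (46.2%) with an unadjusted p under 0.05 and 6 without overlap, and none was called. Of all genes tested, 9.36% had an unadjusted p under 0.05 and 4.87% lay lower without overlap. Myeloid markers summed to 11245 to 13041 and 5421 to 12710 TPM, which overlapped, and none was called.

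After injury, control MuSCs had higher levels of several fibroadipogenic markers. Cd248, Ly6a, Pdgfra, Lum, Dcn and Smoc2 rose between 2.20-fold and 4.55-fold, while Gsn and Dpt fell, and among the vascular markers only Tek, which fell, was called. Of the 28 markers tested (S100b did not pass the filter), 6 (21.4%) were called higher and 3 (10.7%) lower, against 10.8% and 9.46% (20.2% together) of the 15356 genes tested, so the share called lower was close to that of all genes. The median log2 fold change was 0.50 over the 28 and 0.07 over all genes. Ly6a, Mfap5, Pi16 and Emcn had not passed the filter between uninjured genotypes and passed it here. Ly6a had 5 to 13 counts per uninjured and 24 to 42 per injured control library. Its call is therefore tied to the injured libraries that let it into the test. Pdgfra, Dcn, Lum, Smoc2, Cd248, Ly6a, Pi16 and Mbp lay higher and Gsn and Dpt lower at 3 DPI without overlap, as did 12% (higher) and 12.3% (lower) of all genes, 24.3% together. An unadjusted p under 0.05 was found for 15 of the 28 (53.6%) and for 32.5% of all genes.

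Cd248 was at 9.83, 32.4, 6.98 and 26.3 CPM in uninjured and at 58.7, 118.6, 66.9 and 93.0 CPM in injured control libraries, and every injured library exceeded every uninjured one (log2 fold change 2.19, SE 0.34, adjusted p = 2.46e-06). Ly6a, the Sca1 gene, was at 8.04, 4.50, 11.63 and 12.7 CPM in uninjured and 37.1, 24.3, 39.3 and 34.6 CPM in injured libraries (log2 fold change 1.92, SE 0.42, adjusted p = 0.000335). The sort removes Sca1-positive cells in both states, and its gene was counted in all 8 libraries. Pdgfra was at 112.7, 91.4, 88.5 and 141.5 CPM in the injured libraries, above all 4 uninjured values given above (log2 fold change 1.70, SE 0.27, adjusted p = 2.14e-06).

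Lum was at 7.15, 7.20, 9.30 and 16.6 CPM in uninjured and 29.3, 28.2, 24.6 and 39.5 CPM in injured control libraries (log2 fold change 1.64, SE 0.42, adjusted p = 0.00217). Dcn, its relative among the small leucine-rich proteoglycans, was at 160.6, 107.0, 167.2 and 172.8 CPM after injury (log2 fold change 1.59, SE 0.24, adjusted p = 7.47e-07), and Smoc2 at 49.4, 56.4, 31.5 and 81.5 CPM (log2 fold change 1.14, SE 0.31, adjusted p = 0.00412). All of these injured values lay above the uninjured control values, and the call of Smoc2 was lost without injured replicate 4 (adjusted p = 0.0653) and in the abundance-rescaled table (0.0294). Pi16 (log2 fold change 1.44, SE 0.48, adjusted p = 0.0211) and Mfap5 (1.23, SE 0.58, adjusted p = 0.134) were not called by edgeR. Pi16 was called by DESeq2 (adjusted p = 0.0158), by limma's robust fit (0.0058) and with library size alone (0.0117). Mfap5 was called without uninjured replicate 3 (log2 fold change 1.97, adjusted p = 0.0142).

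Gsn was at 515.8, 630.2, 558.6 and 622.9 CPM in injured control libraries, below all 4 uninjured values (log2 fold change -1.35, SE 0.18, adjusted p = 1.07e-07). Dpt was at 92.7, 43.8, 51.1 and 48.6 CPM (log2 fold change -2.17, SE 0.23, adjusted p = 1.81e-10). This comparison and that between genotypes in uninjured MuSCs share the 4 uninjured control libraries, so a shared sign is not independent, and their agreement was not tested. Their log2 fold changes, genotype first and injury second, were 1.20 and 1.59 for Dcn, 1.31 and 1.14 for Smoc2, -0.92 and -1.35 for Gsn and -1.65 and -2.17 for Dpt. Rgs5 and Cspg4, called between genotypes, were not called after injury, with log2 fold changes of 0.53 and 0.37.

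Of the endothelial markers, 9 of 10 had a log2 fold change above 0 with a median of 0.39, and Tek was the exception. Tek was at 95.6, 120.7, 131.4 and 169.6 CPM in uninjured and 64.9, 45.7, 72.8 and 111.9 CPM in injured control libraries, which overlapped (log2 fold change -0.75, SE 0.24, adjusted p = 0.0143). Its call was lost without uninjured replicate 4 or injured replicate 1, 2 or 3 (adjusted p of 0.0411 to 0.104), and with library size alone (0.0504), limma's robust fit (0.0245), the abundance-rescaled table (0.0886) or all 16 libraries in 1 fit (0.147). In that last fit Lum (0.0406), Ly6a (0.0337) and Smoc2 (0.0407) were not called either. Cdh5 had a log2 fold change of 0.62 (SE 0.22, adjusted p = 0.028). Among mural and Schwann markers edgeR called none, and Myh11 (log2 fold change -0.62, SE 0.21, adjusted p = 0.0251), Mbp (0.62, SE 0.20, adjusted p = 0.0214) and Pdgfrb (0.56, SE 0.24, adjusted p = 0.0848) had an unadjusted p under 0.05. Myh11 was called by DESeq2 (adjusted p = 0.019), by limma-voom (0.0104) and without uninjured or injured replicate 3 (0.00355 and 0.00547), Mbp by limma's robust fit (0.00563), with library size alone (0.00186) and without injured replicate 1 (0.019), Cdh5 by limma-voom (0.0174), with library size alone (0.00163) and without uninjured replicate 1 (0.0186), and Pdgfrb without uninjured replicate 3 (0.00659). With at least 10 counts in every library, edgeR called Cdh5 (0.00209), Mbp (0.00313) and Pdgfrb (0.0185).

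In TRF2 MuSC-cKO MuSCs, compared by label, no marker was called after injury. Of the 27 tested (Mfap5 and Cldn5 did not pass the filter), 6 (22.2%) had an unadjusted p under 0.05, as did 16.4% of the 14578 genes tested, of which 4.04% were called (2.43% higher and 1.61% lower). The median log2 fold change was 0.30 over the 27 and 0.01 over all genes. Cd248 was at 37.9, 25.97, 34.4 and 9.53 CPM in uninjured and at 122.7, 77.3, 73.1 and 132.8 CPM in injured libraries, without overlap (log2 fold change 1.83, SE 0.43, adjusted p = 0.0204). Pecam1 was higher (log2 fold change 0.76, SE 0.27, adjusted p = 0.135) and Gsn lower (-0.88, SE 0.26, adjusted p = 0.0662) without overlap. Of all genes, 6.9% lay higher and 6.7% lower without overlap, 13.6% together. Pdgfra (0.84, SE 0.31, adjusted p = 0.169), Abcc9 (-1.11, SE 0.39, adjusted p = 0.133) and Myh11 (-0.75, SE 0.34, adjusted p = 0.286) overlapped.

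This comparison depended on the library that stood apart. Without replicate 3 at 3 DPI, edgeR called Cd248 (adjusted p = 0.000212) and Pdgfra (adjusted p = 0.0142) among the markers and 1316 genes in all, against 589 with it. DESeq2 called Cd248 and Gsn with all 8 libraries, and limma's robust fit called Cd248, Gsn and Pecam1.

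**Figure D5:**
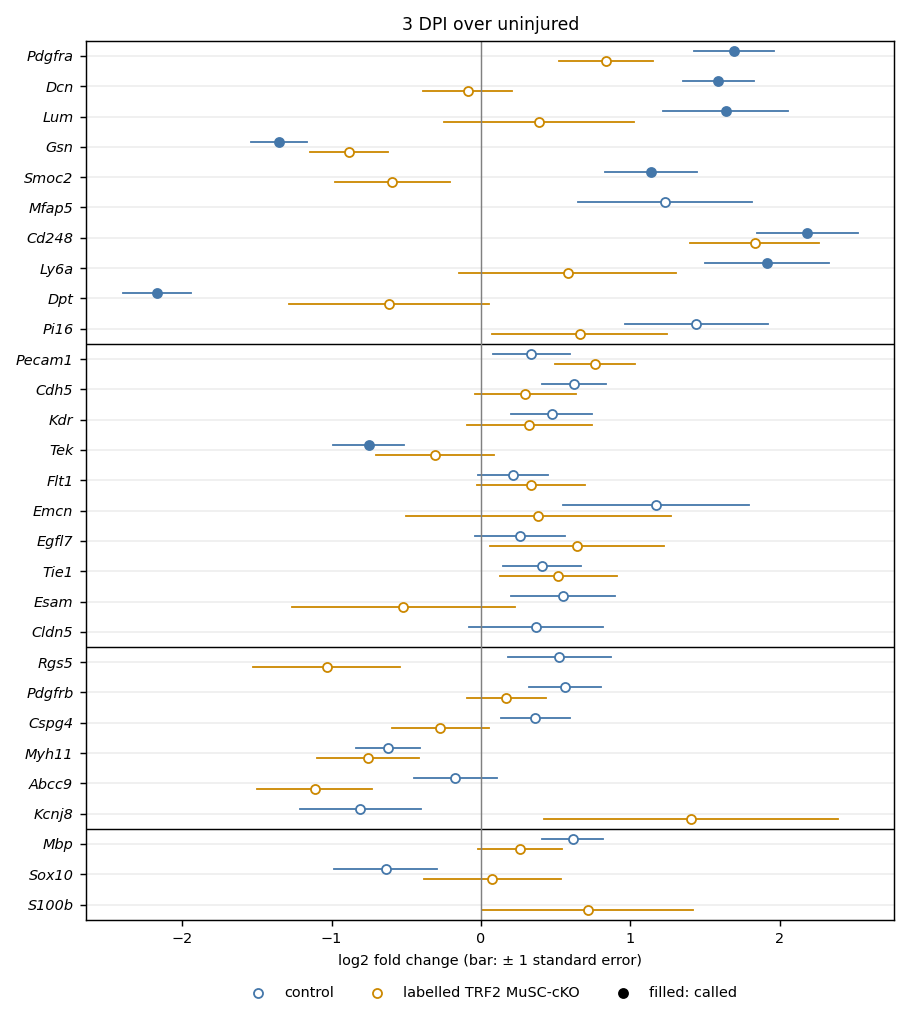
Log2 fold change of 3 DPI over uninjured for each marker tested, in control MuSCs and by label in TRF2 MuSC-cKO MuSCs, with bars of ± 1 standard error and filled points for called genes. The filled points, all in control MuSCs, are Pdgfra, Dcn, Lum, Smoc2, Cd248 and Ly6a on the right and Gsn, Dpt and Tek on the left.

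That markers were called after injury in control MuSCs and not in those labelled TRF2 MuSC-cKO does not show that the responses differ, and the difference was tested as an interaction over all 16 libraries. All 29 markers were tested and none was called, where 0.0178% of 16822 genes were, and 4 (13.8%) had an unadjusted p under 0.05 against 5.74% of all genes. These were Dcn (difference in log2 fold change -1.56, SE 0.42, adjusted p = 0.37), Smoc2 (-1.62, SE 0.50, adjusted p = 0.547), Rgs5 (-1.46, SE 0.59, adjusted p = 0.757) and Dpt (1.65, SE 0.76, adjusted p = 0.845). With 1 library left out, the difference for Dpt ran from 0.98 to 1.95. limma's robust fit called Dcn (adjusted p = 0.00357) and Smoc2 (adjusted p = 0.0138), and neither DESeq2 nor limma-voom called a marker.

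Markers of other cells moved with injury too. In control MuSCs all 12 myeloid markers were called higher after injury (10.8% of all genes were), with a median log2 fold change of 5.53, and their sum went from 116 to 152 TPM to 11245 to 13041 TPM. Lyz2, the lysozyme of macrophages, went from 13.6 to 5822 TPM on average, Ptprc, which encodes CD45, from 5.38 to 97.1 TPM and Itgam, which encodes CD11b, from 7.70 to 192 TPM, although the sort removes cells positive for both antigens. Of the 13 MuSC markers 11 (84.6%, against 9.46% of all genes) were called lower and 1 (Cxcr4) higher, and Pax7 went from 630 to 81.6 TPM. The part of these shifts in the marker changes was not tested. The sum of the fibroadipogenic markers went from 1638 to 1971 TPM to 1023 to 1231 TPM without overlap. Without Gsn and Dpt, both called lower and left out after their values were seen, it went from 158 to 181 TPM to 468 to 576 TPM. The endothelial, mural and Schwann sums overlapped between the states. Sums of further genes of these cell types differed from this. That of 16 further endothelial genes went from 672 to 887 TPM to 1792 to 2461 TPM. The sum of 12 further mural genes went from 1171 to 1494 TPM to 484 to 626 TPM, both without overlap. The endothelial sum rose from a mean of 754 to 2139 TPM, largely through 3 genes that macrophages also make. These were Fabp4 (means 256 and 800 TPM), Cd36 (33.4 and 368 TPM) and Cd93 (20.2 and 194 TPM). Sums of 16 further fibroadipogenic genes (means 3149 and 3887 TPM) and 12 further Schwann genes (means 617 and 532 TPM) overlapped.

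Further genes of the same 4 cell types were counted from longer lists. Of 16 further fibroadipogenic genes, 14 were tested between genotypes in uninjured MuSCs, with 1 (7.14%, against 0.584% of all genes), the matrix protease Mmp2, called higher (log2 fold change 0.88) and 2 (14.3%, against 2.63%), collagen III Col3a1 (-2.12) and the microfibril protein Fbn1 (-1.10), called lower. None of the further endothelial (16 tested), mural (9 tested) or Schwann (11 tested) genes was called in that comparison, and no gene of the 4 lists was called between genotypes at 3 DPI. After injury in control MuSCs, where 10.8% of all genes were called higher and 9.46% lower, 4 of 15 further fibroadipogenic genes (26.7%) were called higher, including fibronectin Fn1 (3.47), Col1a2 (2.63) and the chemokine Cxcl14 (2.53), and 3 (20%) lower, including the steroid-activating enzyme Hsd11b1 (-2.60).

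Of the further endothelial genes, 7 of 15 (46.7%) were called higher after injury in control MuSCs, led by Cd36 (log2 fold change 3.49), Cd93 (3.29), Plvap (2.13) and Fabp4 (1.68). Cd36, a fatty acid transporter, Cd93, a surface receptor, and Fabp4, a fatty acid carrier, are also made by macrophages, whereas Plvap forms the diaphragms of endothelial pores. Of 11 further mural genes, 1 (9.09%, near the share of all genes) was called higher (Steap4, 1.20) and 5 (45.5%) lower, led by the receptor Notch3 (-2.75), which MuSCs also use, the adhesive protein Vtn (-1.46) and the actin-binding Tagln (-1.36). Among 11 further Schwann genes, 1 (9.09%, again near the share of all genes) was called lower, the transcription factor Egr2 (-0.99). In TRF2 MuSC-cKO MuSCs by label, where 2.43% of all genes were called higher and 1.61% lower, Cd93 (2.59), Cd36 (2.51) and Fabp4 (1.86) were called higher and Notch3 (-2.85) lower, with Fn1 (3.31), Col1a2 (1.74) and Col1a1 (1.72) higher and Mmp2 (-2.01) lower.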

How the data were processed

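RNA of sorted MuSCs was sequenced as rRNA-depleted total RNA libraries. Per the labels and methods, reads were trimmed with Trim Galore 0.6.7, aligned with STAR (2.6.1d in the submitters' processing notes, a later version in the study's methods) and quantified with Salmon 1.5.2 on GRCm38. The libraries carry unique molecular identifiers per the methods, and whether reads were deduplicated by them and the annotation release are not given in the sources used here. The authors deposited estimated counts per gene, unnormalized and as a second table rescaled by abundance. TPM were computed from the rescaled table by scaling each library to the same total. Values in CPM are from the unnormalized table with TMM scaling over 16 libraries.

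Estimated counts were rounded and tested with edgeR 4.0.16 (R 4.3.3): robust quasi-likelihood fit, TMM, filterByExpr, Benjamini-Hochberg adjustment over all genes tested, 8 libraries per comparison and all 16 for the interaction. A call required an adjusted p under 0.02 and a fold change over 1.5. Every adjusted p in the text is edgeR's unless another tool is named. SE was taken from the fold change and its F statistic. Alternatives were DESeq2 1.42.0, limma 3.58.1 (robust fit with a prior count of 2, and voom), other size factors and filters (no filter, or at least 10 counts in every library), the rescaled table, 1 fit of all 16 libraries, a replicate block, an adjusted p under 0.05 with no minimum fold, and leaving out each library. A label code as a term at 3 DPI and the fibroadipogenic sum without Gsn and Dpt were added after seeing the data, as was the olfactory receptor reading. The fits were tested on simulated data with known changes.

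The members and lists were chosen with earlier results of these data known. All 29 members are named with their level. Fold changes and p are given for members called or with an unadjusted p under 0.05, and for Pecam1 and Ly6a between genotypes where tested. From other lists up to 4 called genes of largest change were named, and the sort's antigen genes Ptprc, Itgam, Itga7, Vcam1 and Cd34 were named after their values were seen. Gene positions are from GENCODE M21 on GRCm38, where 23376 of 24411 genes and all 29 members matched, and promoters from RefSeq on GRCm38.p6, where 16 of 29 members were matched. The labels call replicates biological, and whether each is a separate animal is not given in the sources used here. Counting intervals were not used, and the limit for a count of 0 covers counting error only. Replicate numbers did not pair the libraries.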

Additional observations from a re-analysis of the deposited data

Results flagged for a closer look

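Single libraries lay far from the other 3 of their group in 9 of the 132 groups of values looked at (116 for single markers and 16 for sums), by a gap above 0.829 of the group's range. Chance alone flags about 1 in 20 groups (5%).

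Replicate 3 of the libraries labelled TRF2 MuSC-cKO at 3 DPI held 4 of the 9: Kcnj8 at 179.8 CPM, Sox10 at 146.3 CPM, Tek at 138.8 CPM and the summed Schwann markers at 423.6 TPM. In the same group, Smoc2 stood apart in replicate 2 at 49.59 CPM. Dpt stood apart in uninjured TRF2 MuSC-cKO replicate 4 at 123.9 CPM and in control replicate 1 at 3 DPI at 92.66 CPM. Mfap5 stood apart in uninjured TRF2 MuSC-cKO replicate 3 at 22.9 CPM and Emcn in uninjured control replicate 3 at 12.79 CPM, both from few counts.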

How the results depend on the processing

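Between genotypes in uninjured MuSCs, 6 markers were called, 0 in the abundance-rescaled table and 0 with all 16 libraries in 1 fit, and 3 to 8 when 1 library was left out (3 without control replicate 1, 2 or 4 or TRF2 MuSC-cKO replicate 4). With 1 library left out, the log2 fold change of Pecam1 between uninjured genotypes ran from -0.55 to 0.013, above 0 without control replicate 4, and at 3 DPI from -0.068 to 0.22, below 0 without control replicate 1. At 3 DPI 0 markers were called in each of the 20 alternatives run. After injury in control MuSCs, 9 were called, 5 with all 16 libraries in 1 fit, 8 to 12 with 1 library left out and 7 to 13 in the other alternatives. After injury by label in TRF2 MuSC-cKO MuSCs, 0 were called, 1 with library size alone, without a filter, with all 16 libraries or at an adjusted p under 0.05 with no minimum fold, 2 with DESeq2, 3 with limma's robust fit and 0 to 2 with 1 library left out. For the interaction, 2 were called by limma's robust fit and 0 otherwise. The cause of these shifts was not tested.

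The log2 ratio of the fibroadipogenic sum moved to -0.79 on the CPM scale between uninjured genotypes, and without Gsn to -0.023 there, to 0.17 after injury in control MuSCs and to 0.13 after injury by label. Without Gsn and Dpt, left out after their values were seen, these were 1.24, 1.63 and 0.33. On the CPM scale the uninjured genotype ratios of the endothelial and Schwann sums moved to -0.24 and 0.46. Without Myh11 the mural ratio after injury in control MuSCs moved to 0.20, and without Mbp the Schwann ratio moved to 1.16 between genotypes at 3 DPI and to -0.26 after injury in control MuSCs. Of 800 alternatives for 41 gene results, 707 kept direction and call, 48 lost a call, 43 gained one and 2 turned direction.

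With a replicate block, 5 markers were called between uninjured genotypes (Rgs5 lost its call, adjusted p = 0.0216), 0 between genotypes at 3 DPI, 9 after injury in control MuSCs, 0 after injury by label and 0 for the interaction. Same-numbered libraries did not deviate together (correlations of -0.11 to 0.111), so the numbers do not pair the samples. Depth of 620506 to 1351130 counts leaves markers under 10 CPM at about the level of a few reads.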

Other observations

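After injury in control MuSCs, 2 of the 8 myofiber markers tested (25%) were called higher, the fast troponin Tnni2 (log2 fold change 2.04) and the creatine kinase Ckm (1.49), and 1 of 5 tenocyte markers (20%), the matrix protein Thbs4 (1.39), against 10.8% of all genes. The summed myofiber markers went from 187 to 254 TPM to 273 to 487 TPM and the tenocyte markers from 119 to 221 TPM to 225 to 468 TPM, both without overlap, while on the CPM scale both overlapped (228 to 272 and 256 to 341 CPM, and 155 to 277 and 264 to 516 CPM). None of the adipocyte (2 tested) or lymphocyte (2 tested) markers was called by edgeR.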
